A study of Mus musculus with 6 samples.

Results

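The 37 genes described here follow the B lymphocyte lineage from its first committed progenitor in the marrow to the mature B cell, and were measured in RNA from femoral bone of wheel running and of sedentary mice. They were taken by gene symbol, 37 of the 55484 genes in the deposited tables, and each symbol matched 1 gene. They were sorted by role into 9 transcription factors, 8 progenitor and pre-B genes, 4 early surface and stage markers, 6 genes of the receptor complex and its signalling, and 10 genes of mature B cells. The running group was 3 male wild-type C57BL/6 mice on normal chow, housed singly for 6 weeks with free access to a running wheel. The sedentary group was 3 male wild-type C57BL/6 mice on the same chow, housed singly for the same 6 weeks in cages without a wheel. Both groups started at 6 weeks of age and were sampled at 12 weeks. The labels used here do not say whether marrow was flushed from the bone. Levels are in FPKM, fragments per kilobase of transcript at a common sequencing depth, and the deposited tables give a single FPKM for each group of mice, so the spread between mice cannot be given.

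B cells are made in the marrow throughout life. Progenitors switch on Ebf1 and Pax5 under the E protein encoded by Tcf3, respond to interleukin 7 through Il7r, and cut and join the immunoglobulin gene segments with the recombinase encoded by Rag1 and Rag2. A first heavy chain is tested on the cell surface with a stand-in light chain, the surrogate light chain of Vpreb1, Vpreb2 and Igll1, before a true light chain replaces it. Ms4a1 (CD20) appears while cells are still in the marrow, and Fcer2a (CD23) and Cr2 (CD21) follow as they mature. From the immature stage on, cells signal through the B cell receptor, in which Cd79a and Cd79b carry the signal of the surface immunoglobulin.

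The DNA just before the start sites of 4 progenitor genes is shown because their values mark the ends of the comparison at that stage: Rag1 had the lowest log2 fold of all 37 genes and Igll1 the one nearest 0, Dntt was the one progenitor gene above 0, and Vpreb3 was the most abundant. The 250 bases come from RefSeq on GRCm38.p6 and run 5′ to 3′ on each gene's strand. They lie at chr2:101649533-101649782 on the minus strand for Rag1, chr16:16863986-16864235 on the minus strand for Igll1, chr19:41029025-41029274 on the plus strand for Dntt and chr10:75948050-75948299 on the plus strand for Vpreb3. Capitals mark matches, on either strand, to the E-box forms CAGGTG and CAGCTG that E proteins bind, to the octamer ATGCAAAT that Oct factors bind, or to the EBF palindrome, TCCC and GGGA with 2 bases between them.
Rag1: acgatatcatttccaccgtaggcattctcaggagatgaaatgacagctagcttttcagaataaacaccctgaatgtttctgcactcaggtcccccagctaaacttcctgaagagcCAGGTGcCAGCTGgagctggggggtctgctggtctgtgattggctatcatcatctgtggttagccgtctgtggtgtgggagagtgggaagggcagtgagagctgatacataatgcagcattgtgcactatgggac
Igll1: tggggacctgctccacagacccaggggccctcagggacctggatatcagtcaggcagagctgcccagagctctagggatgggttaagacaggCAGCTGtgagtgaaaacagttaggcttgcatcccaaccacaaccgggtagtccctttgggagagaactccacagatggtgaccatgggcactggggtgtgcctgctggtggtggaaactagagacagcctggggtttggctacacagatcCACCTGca
Dntt: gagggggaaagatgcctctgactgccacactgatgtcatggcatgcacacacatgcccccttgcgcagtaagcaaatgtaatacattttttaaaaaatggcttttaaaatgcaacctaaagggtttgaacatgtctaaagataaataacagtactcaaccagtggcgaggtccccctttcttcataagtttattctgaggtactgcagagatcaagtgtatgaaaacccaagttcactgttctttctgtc
Vpreb3: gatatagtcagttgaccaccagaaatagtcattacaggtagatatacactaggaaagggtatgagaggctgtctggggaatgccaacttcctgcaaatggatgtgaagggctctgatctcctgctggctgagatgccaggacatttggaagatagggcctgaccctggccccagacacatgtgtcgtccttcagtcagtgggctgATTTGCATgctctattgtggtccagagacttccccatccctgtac

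Rag1 holds both E-box forms 1 base apart, Igll1 holds both forms far apart, Vpreb3 holds an octamer and Dntt holds none of the 4 motifs in this window. RefSeq promoters were matched for 30 of the 37 genes, and the 300-base windows (250 before and 50 after each start) were searched. CAGGTG was found in 14 of these 30 genes (46.7%), against 22.6% of the 27025 genes with a promoter. CAGCTG was found in 7 of the 30 (23.3%), against 18.3%. The octamer was found in Vpreb3 and Blnk (6.67%, against 1.97%) and the EBF palindrome in Cd22 alone (3.33%, against 1.06%). A match describes the letters in the window and does not show that a factor binds there.

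All 37 genes were expressed and tested by the authors, and none passed the test between running and sedentary mice at a q under 0.05 in the authors' deposited table. Over all 15508 tested genes 0.941% passed that threshold, 0.445% higher and 0.497% lower in running mice. Most of the B lineage genes lay slightly lower in the running mice: the log2 fold (running over sedentary, of FPKM + 0.1) was below 0 for 33 of 37, or for 31 with both groups set to an equal total FPKM, which turned Igll1 and Cd24a, against 51.8% of all tested genes. The median log2 fold was -0.12 over the 37 genes and -0.01 over all tested genes. The size was under 0.25 for 30 of the 37 genes, against 77% of all tested genes. In bulk bone, fewer B cells and less RNA per B cell cannot be told apart.

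Precision was read from the authors' own values. The authors' deposited log2 fold divided by their test statistic gives a standard error (SE), which matched the SE implied by the deposited intervals, read as 2 SE each way, within 1% for 15488 of 15490 genes. This SE comes from the authors' model, not from the 3 mice seen singly. It ranged from 0.19 to 1.18 among the 37 genes, with a median of 0.28, and the 95% interval of the log2 fold covered 0 for all 37. For 28 of them the interval lay entirely above -1, so a log2 fold of -1 or lower fell outside it. The share of all tested genes is not given here for either count. Covering 0 is a weak check, since the interval also covered 0 for Lepr (-0.05 to 1.07), a marrow niche gene that was called. For every one of the 37 the running and sedentary intervals overlapped, whereas they were apart for 0.574% of all tested genes. The deposited p does not follow from this SE on a normal curve and was smaller. For example, Pax5, Fcrla, Blk and Ikzf3 had test statistics of -0.81, -0.97, -0.94 and -0.90. Their p in the authors' deposited table was 0.088, 0.090, 0.101 and 0.112, each with a q of 0.9997. A fold smaller than its SE is thus no reading of that p.

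The levels spread over a wide range. The level percentile among tested genes had a median of 70.6 and 30 of the 37 lay above the middle of the tested genes. Cd24a, which encodes a surface glycoprotein that erythroid and myeloid precursors also carry, stood far above the rest at 1017 FPKM (806 to 1227) in running and 1047 FPKM (829 to 1265) in sedentary mice. Cd37, Cd79a and Ikzf1 followed at 105, 94.2 and 94.1 FPKM in running and 109, 101 and 97.9 FPKM in sedentary mice. The lowest were Rag2, Cr2 and Vpreb2. When the genes were put in order of their running level, the authors' intervals of neighbours overlapped in 35 of 36 pairs, the exception being Cd24a and Cd37, so the order between close genes is not resolved.

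**Figure D1:**
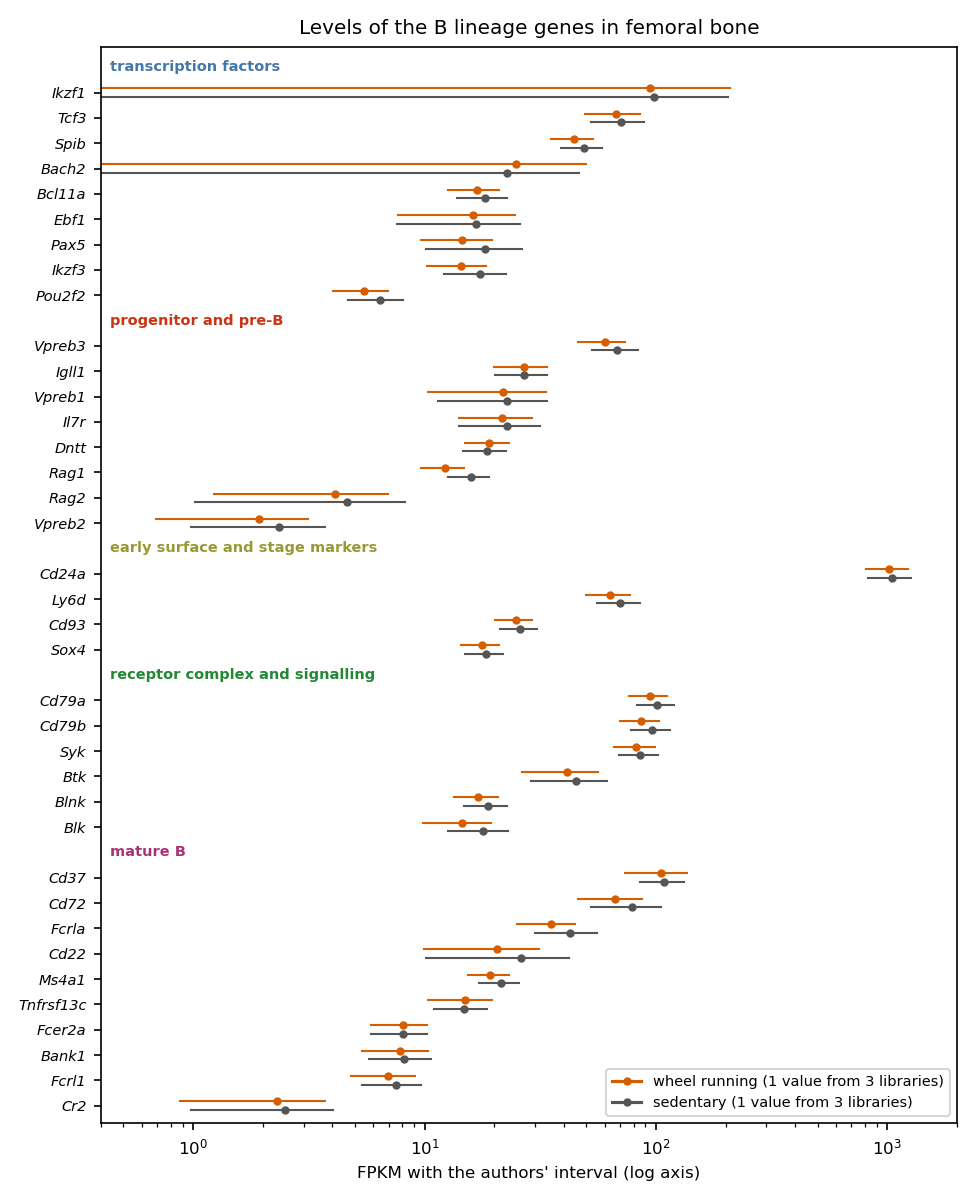
FPKM of the 37 B lineage genes (log axis) in running mice (upper point, orange) and sedentary mice (lower point, grey), each 1 pooled value of 3 libraries with the authors' interval. The paired intervals overlap for every gene, and those of Ikzf1 and Bach2 reach 0, left of the axis.

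Of the transcription factors none was called, 8 of 9 had a log2 fold below 0 under every scaling tried, and the median was -0.12. Ebf1 (ENSMUSG00000057098; chromosome 11, 44617317 to 45008091, plus strand), the factor that specifies the lineage, stood at 16.2 FPKM (interval 7.66 to 24.7) in running and 16.7 FPKM (7.61 to 25.8) in sedentary mice. Stromal cells and fat also express Ebf1. Its paralog Ebf3, a marrow stroma gene, had 13.9 FPKM in running and 12.4 FPKM in sedentary mice, and the adipocyte and stromal paralog Ebf2 had 0.527 FPKM in running and 0.237 FPKM in sedentary mice and was not tested by the authors. Their part in the Ebf1 level was not tested.

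Pax5 (ENSMUSG00000014030; chromosome 4, 44524757 to 44710487, minus strand), which commits cells to the B lineage and is not shared with stroma, had 14.6 FPKM (9.61 to 19.5) in running and 18.2 FPKM (10.1 to 26.3) in sedentary mice. Its log2 fold of -0.32 ± 0.40 (SE) was the lowest of the factors and smaller than its SE, though its p in the authors' deposited table was 0.088. Ikzf3, which encodes Aiolos and rises in pre-B cells, had 14.4 FPKM (10.3 to 18.5) in running and 17.3 FPKM (12.1 to 22.5) in sedentary mice (log2 fold -0.27 ± 0.30 SE). Pou2f2, which encodes the octamer-binding factor Oct-2, had 5.48 FPKM (4.03 to 6.93) in running and 6.39 FPKM (4.69 to 8.10) in sedentary mice (-0.22 ± 0.27 SE). Each of these differences was about as large as its SE or smaller.

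The other factors had smaller folds. Tcf3, which encodes the E proteins E12 and E47, had 67.3 FPKM (49.1 to 85.5) in running and 70.8 FPKM (52.6 to 89.0) in sedentary mice. Spib, an Ets factor of B cells and plasmacytoid dendritic cells, had 44.4 FPKM (35.4 to 53.4) in running and 48.8 FPKM (39.1 to 58.6) in sedentary mice, and Bcl11a, needed for early lymphoid progenitors, had 16.9 FPKM (12.6 to 21.1) in running and 18.3 FPKM (13.8 to 22.8) in sedentary mice. In the same libraries the plasmacytoid gene Siglech had 14.1 FPKM in running and 17.4 FPKM in sedentary mice. Of the genes listed with it, Bst2 had 53.9 FPKM in running and 58.3 FPKM in sedentary mice. Tcf4 went the other way, with 31.0 FPKM in running and 29.1 FPKM in sedentary mice. None of these was called, and their part in the Spib level was not tested.

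Ikzf1, which encodes the lymphoid regulator Ikaros, had 94.1 FPKM in running and 97.9 FPKM in sedentary mice, but its intervals ran from 0 to 210 in running and from 0 to 204 in sedentary mice. Bach2, a repressor that delays plasma cell differentiation, had 24.9 FPKM in running and 22.8 FPKM in sedentary mice, again with intervals from 0, to 49.8 in running and to 46.6 in sedentary mice. The SE of 1.18 for Ikzf1 and 1.05 for Bach2 on the log2 scale leaves their direction undetermined, although Bach2 was the one factor with a log2 fold above 0 (0.13).

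Of the 8 progenitor and pre-B genes, again none was called, 7 had a log2 fold below 0 (6 after either rescaling, which turned Igll1), and the median was -0.12. Rag1 (ENSMUSG00000061311; chromosome 2, 101638282 to 101649501, minus strand), the catalytic subunit of the recombinase, had 12.3 FPKM (9.68 to 14.8) in running and 15.8 FPKM (12.6 to 19.1) in sedentary mice. The log2 fold was -0.37 ± 0.21 (SE), the lowest of all 37 genes. In the authors' deposited table its p was 0.0023 and its q 0.156, so it passed an unadjusted threshold of 0.05 but not the adjusted one. It was the 1 of 37 genes with an unadjusted p under 0.05 (2.70%), where 5.65% of all tested genes had one, 2.22% with a lower level in running mice. Its test statistic of -1.75 in the authors' deposited table is modest beside that p, and the 2 intervals overlapped.

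Rag2 (chromosome 2, 101624718 to 101632529, plus strand), the partner subunit, which lies beside Rag1 and is transcribed toward it, had 4.08 FPKM (1.23 to 6.94) in running and 4.61 FPKM (1.02 to 8.20) in sedentary mice. Its log2 fold was -0.17 ± 0.75 (SE), so its direction is undetermined. The Rag1 to Rag2 ratio of levels was 3.00 in running and 3.44 in sedentary mice. Exons of both genes overlap the gene B230118H07Rik, at 9.20 FPKM in running and 9.98 FPKM in sedentary mice. It lies on the same strand as Rag1 and on the opposite strand to Rag2. How strand entered the counting is unknown here, and strand could not separate shared fragments from those of Rag1. Its part in either level was not tested.

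Of the surrogate light chain genes, Igll1 and Vpreb1 had log2 folds close to 0 (-0.0041 and -0.05), though with wide intervals. Igll1 (ENSMUSG00000075370; chromosome 16, 16860671 to 16863985, minus strand), which encodes the lambda5 chain, had 26.9 FPKM in both running mice (20.05 to 33.7) and sedentary mice (20.2 to 33.7), with a log2 fold of -0.0041 ± 0.26 (SE). Vpreb1 (chromosome 16, 16868403 to 16870843, minus strand) had 21.9 FPKM (10.4 to 33.5) in running and 22.7 FPKM (11.5 to 34.0) in sedentary mice. Its exons overlap Top3b on the opposite strand, which had 32.4 FPKM in running and 38.8 FPKM in sedentary mice, and the part of those fragments in the Vpreb1 level was not tested. Vpreb2 had 1.92 FPKM in running and 2.35 FPKM in sedentary mice, which the size of 1 fragment puts at about 46 fragments over 3 running and 54 over 3 sedentary libraries. The transcripts of Vpreb1 and Vpreb2 were identical at 739 of 759 aligned bases (97.4%), so how their fragments were split is uncertain.

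Dntt (ENSMUSG00000025014; chromosome 19, 41029275 to 41059525, plus strand) encodes terminal transferase, which adds bases at the joints of heavy chain segments in pro-B cells. It had 19.1 FPKM (15.0 to 23.1) in running and 18.6 FPKM (14.6 to 22.5) in sedentary mice, a log2 fold of 0.04 ± 0.22 (SE). Dntt and Rag1, both active in pro-B cells, thus lay on opposite sides of 0, each without a call. Il7r, the interleukin 7 receptor that T cells also carry, had 21.6 FPKM (14.0 to 29.1) in running and 22.8 FPKM (14.1 to 31.5) in sedentary mice. Vpreb3, which is expressed from pre-B to immature cells, had 60.0 FPKM (46.2 to 73.8) in running and 68.2 FPKM (53.0 to 83.4) in sedentary mice.

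The 4 early surface and stage markers, which other marrow cells share, all had log2 folds between -0.15 and -0.04, with a median of -0.07, and rescaling to the same total turned Cd24a to just above 0. Ly6d, which marks the step from common lymphoid to B-biased progenitors, had 63.5 FPKM (49.9 to 77.2) in running and 70.2 FPKM (55.4 to 85.1) in sedentary mice, close to 1486 fragments in running and 1563 in sedentary libraries. Cd93, a marker of immature B cells that endothelial cells and myeloid precursors also carry, had 24.7 FPKM (20.2 to 29.3) in running and 25.9 FPKM (21.2 to 30.7) in sedentary mice. Sox4, a factor of pro-B cell survival found in many progenitors, had 17.7 FPKM (14.3 to 21.001) in running and 18.4 FPKM (14.9 to 21.9) in sedentary mice. None of the 4 was called.

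The receptor complex and its signalling genes gave none that was called, with all 6 log2 folds below 0 under every scaling tried and a median of -0.13. Cd79a (ENSMUSG00000003379; chromosome 7, 24897381 to 24902197, plus strand), the Ig-alpha chain, is restricted to B cells. It had 94.2 FPKM (76.8 to 112) in running and 101 FPKM (82.4 to 120) in sedentary mice, about 5421 fragments in running and 5496 in sedentary libraries, and a log2 fold of -0.10 ± 0.19 (SE). Its ratio of running over sedentary was 0.932, with a 95% interval of 0.722 to 1.20. Cd79b (ENSMUSG00000040592; chromosome 11, 106311341 to 106314762, minus strand), the Ig-beta chain, had 86.3 FPKM (70.0 to 103) in running and 96.5 FPKM (78.3 to 115) in sedentary mice. Its ratio was 0.895, with an interval of 0.689 to 1.16. The Cd79a to Cd79b ratio of levels was 1.09 in running and 1.05 in sedentary mice.

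Downstream of the receptor, the adaptor gene Blnk had 17.1 FPKM (13.4 to 20.8) in running and 18.7 FPKM (14.7 to 22.8) in sedentary mice. The B cell Src kinase gene Blk had 14.6 FPKM (9.84 to 19.3) in running and 17.9 FPKM (12.7 to 23.1) in sedentary mice (log2 fold -0.29 ± 0.31 SE), the lowest fold of this group. Btk, a kinase that myeloid cells also use, had 41.3 FPKM (26.3 to 56.4) in running and 45.1 FPKM (28.8 to 61.4) in sedentary mice. Syk, a kinase with like use in myeloid cells, had 82.3 FPKM (66.0 to 98.7) in running and 85.8 FPKM (69.0 to 103) in sedentary mice. None of these differences exceeded its SE.

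Of the 10 genes of mature B cells none was called, 8 had a log2 fold below 0 under every scaling tried, and the median was -0.11. Ms4a1 (ENSMUSG00000024673; chromosome 19, 11249675 to 11266241, minus strand), which encodes CD20, had 19.3 FPKM (15.4 to 23.1) in running and 21.3 FPKM (17.2 to 25.5) in sedentary mice, a log2 fold of -0.15 ± 0.20 (SE). Fcer2a, the low-affinity IgE receptor CD23 of follicular B cells, had 8.08 FPKM (5.87 to 10.3) in running and 8.05 FPKM (5.85 to 10.2) in sedentary mice. Cr2, the complement receptor CD21 that is highest on marginal zone B cells, had 2.31 FPKM (0.879 to 3.73) in running and 2.51 FPKM (0.976 to 4.04) in sedentary mice. Tnfrsf13c, the receptor of the survival factor BAFF, had 15.0 FPKM (10.4 to 19.6) in running and 14.7 FPKM (10.9 to 18.6) in sedentary mice. Fcer2a and Tnfrsf13c were the 2 mature genes with a log2 fold above 0 (0.01 and 0.02), both far within their error.

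None of the folds of the other mature genes exceeded its SE. Cd22, a sialic acid-binding inhibitory receptor, had 20.6 FPKM (9.99 to 31.2) in running and 26.1 FPKM (10.2 to 41.9) in sedentary mice (log2 fold -0.34 ± 0.58 SE). Fcrla, an intracellular Fc receptor-like protein, had 35.0 FPKM (25.2 to 44.9) in running and 42.7 FPKM (29.9 to 55.5) in sedentary mice (-0.29 ± 0.30 SE). Cd72, an inhibitory co-receptor, had 66.4 FPKM (46.1 to 86.8) in running and 78.6 FPKM (52.2 to 105) in sedentary mice (-0.24 ± 0.33 SE), and its exons overlap Tesk1, which had 8.17 FPKM in running and 7.89 FPKM in sedentary mice. Cd37, a tetraspanin of many leukocytes, had 105 FPKM (73.7 to 136) in running and 109 FPKM (85.2 to 132) in sedentary mice, with exons that overlap Tead2, at 4.58 FPKM in running and 4.13 FPKM in sedentary mice. The surface receptor gene Fcrl1 had 6.95 FPKM (4.83 to 9.07) in running and 7.50 FPKM (5.38 to 9.63) in sedentary mice, and the adaptor gene Bank1 had 7.85 FPKM (5.35 to 10.4) in running and 8.19 FPKM (5.74 to 10.6) in sedentary mice.

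**Figure D2:**
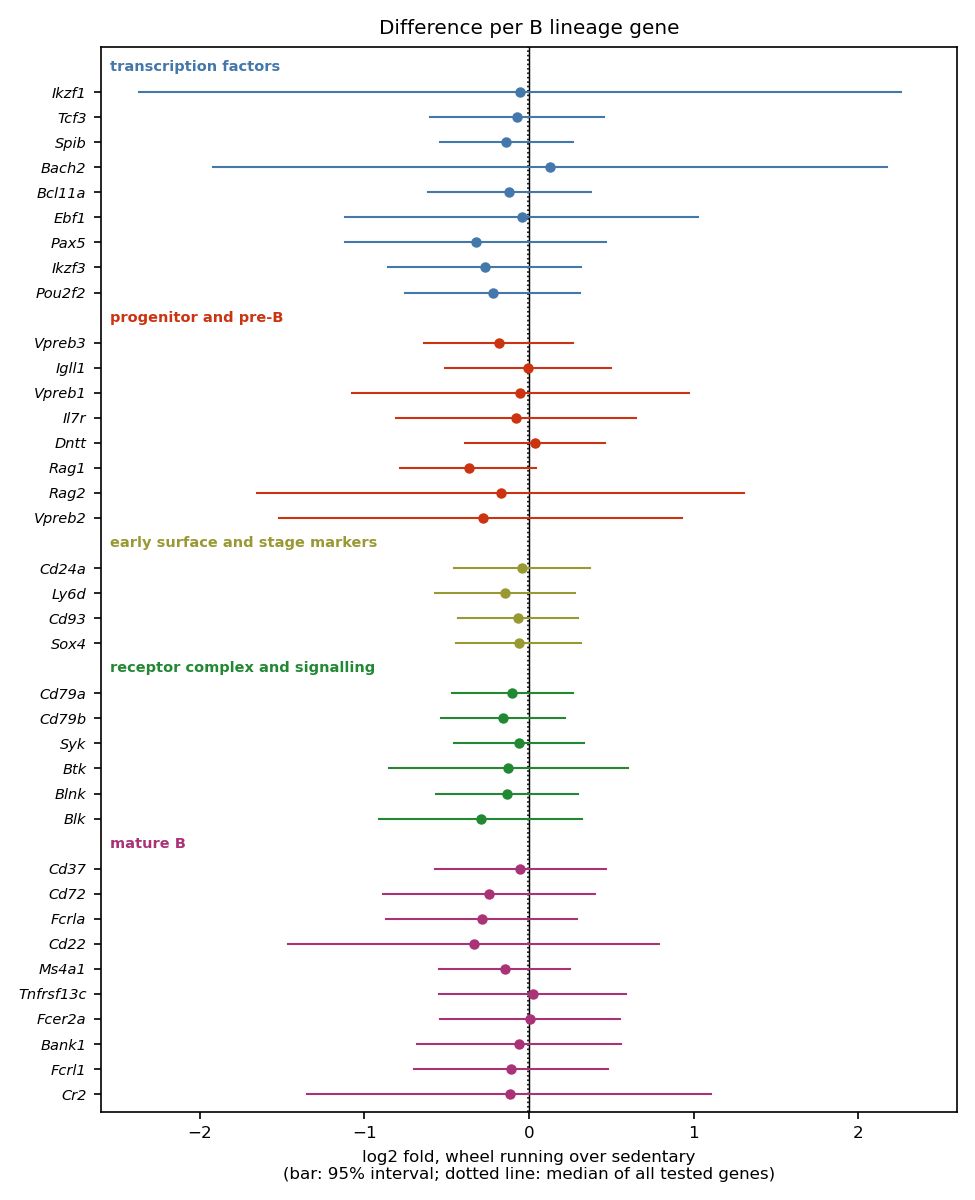
Log2 fold (running over sedentary) of each B lineage gene, coloured by role, with a bar for the 95% interval around the authors' deposited fold; the dotted line is the median of all tested genes (-0.01). Points lie below 0 for 33 of 37 genes (31 with both groups set to an equal total FPKM), and every bar crosses 0.

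The median log2 fold was -0.12 for the 8 progenitor and pre-B genes and -0.11 for the 10 mature genes, a difference of -0.01 for which no error was estimated. The summed level of the progenitor list over that of the mature list was 0.586 in running and 0.572 in sedentary mice. Leaving out Vpreb3, which is expressed late among the progenitor genes, and Cd22, Cd72 and Cd37, which begin before the mature stage, while keeping Ms4a1, which also begins in the marrow, put the medians at -0.08 over 7 progenitor and -0.11 over 7 mature genes, and the ratio of sums at 1.14 in running and 1.08 in sedentary mice. The sign of the difference between the medians turned with that choice. Genes are not replicates of a condition, so no test of the difference between stages was made.

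Further genes of the lineage gave a like picture. Of 40 further B lineage genes tested by the authors, none was called (0.941% of all tested genes were), and 32 had a log2 fold below 0, with a median of -0.10. Among the most abundant, the invariant chain gene Cd74 had 507 FPKM in running and 530 FPKM in sedentary mice. The class II gene H2-Aa had 189 FPKM in running and 213 FPKM in sedentary mice, and H2-Ab1 had 136 FPKM in running and 151 FPKM in sedentary mice. The chemokine receptor gene Cxcr4 had 156 FPKM in running and 159 FPKM in sedentary mice. At an unadjusted p under 0.05 there were 2 of the 40. Irf4, a factor of pre-B and plasma cells, had 10.2 FPKM in running and 13.5 FPKM in sedentary mice (p = 0.001 and q = 0.0857 in the authors' deposited table). S1pr1, a receptor for exit from the marrow, had 18.9 FPKM in running and 16.1 FPKM in sedentary mice (p = 0.0460 and q = 0.864 in the authors' deposited table). Of 10 genes of the marrow niche, Lepr alone was called, and rose to 39.7 FPKM in running mice, against 27.9 FPKM in sedentary mice (q = 0.0478 in the authors' deposited table), with overlapping intervals. Unadjusted p was under 0.05 for 4 of the 10 (40%), 3 higher and 1 lower, against 5.65% of all tested genes. Besides Lepr these were Vcam1 (213 FPKM in running and 171 FPKM in sedentary mice), Kitl (24.7 and 20.5 FPKM) and the BAFF gene Tnfsf13b (7.65 and 10.3 FPKM). Their q in the authors' deposited table was 0.247, 0.724 and 0.711. Cxcl12, the niche chemokine that retains B progenitors, had 973 FPKM in running and 860 FPKM in sedentary mice, and Il7, the cytokine of pro-B cells, had 2.02 FPKM in running and 1.84 FPKM in sedentary mice. Neither was called.

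Immunoglobulin constant genes, by contrast, held called members at the same threshold, which 0.941% of all tested genes passed. They were 4 lower and 1 higher of 7 tested heavy chain genes, and 3 lower of 4 light chain genes. Ighm, the constant gene of the IgM heavy chain, fell to 385 FPKM (313 to 458) in running mice, against 1001 FPKM (763 to 1240) in sedentary mice (q = 0.00718 in the authors' deposited table). Ighd, the neighbouring constant gene of IgD, which naive B cells splice from the same primary transcript, had 42.5 FPKM in both running mice (34.2 to 50.8) and sedentary mice (34.3 to 50.7). Igkc, the kappa light chain constant gene, fell to 1073 FPKM in running mice, against 1815 FPKM in sedentary mice (q = 0.00718 in the authors' deposited table). Igha, the IgA constant gene, rose to 406 FPKM in running mice, against 273 FPKM in sedentary mice. The IgG genes Ighg2b, Ighg2c and Ighg3 fell to 19.1, 2.86 and 5.08 FPKM in running mice, against 32.8, 23.2 and 18.4 FPKM in sedentary mice. The lambda genes Iglc1 and Iglc2 fell to 45.0 and 49.1 FPKM in running mice, against 135 and 90.0 FPKM in sedentary mice. The IgG and lambda genes have close copies, so how fragments were split among them is uncertain. Set against the signalling chain Cd79a, the ratio of levels was 4.09 in running and 9.91 in sedentary mice for Ighm, and 0.451 in running and 0.421 in sedentary mice for Ighd. Of 8 plasma cell genes, Jchain alone was called, and fell to 104 FPKM in running mice, against 169 FPKM in sedentary mice (q = 0.00718 in the authors' deposited table), and the list median was -0.33. The summed level of the plasma cell list was 242 FPKM in running and 331 FPKM in sedentary mice, and Jchain made up most of that difference. The log2 fold was below 0 for 7 of the 8 genes. Sdc1 went the other way, with 21.1 FPKM in running and 20.0 FPKM in sedentary mice. Irf4 is in this list and also among the further B lineage genes. The part of the plasma cell list in the immunoglobulin levels was not tested.

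**Figure D3:**
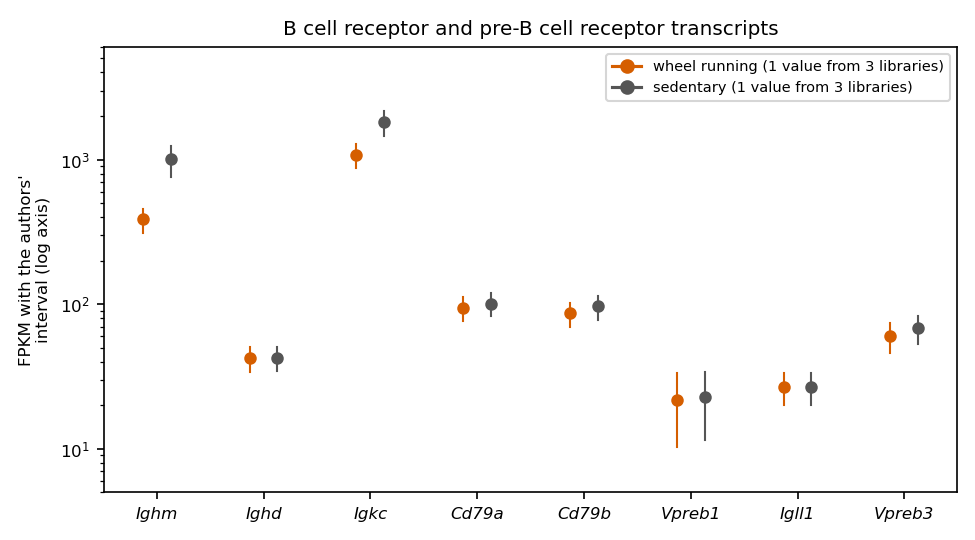
FPKM (log axis) with the authors' interval for genes of the B cell receptor (Ighm, Ighd, Igkc, Cd79a, Cd79b) and the pre-B cell receptor stage (Vpreb1, Igll1, Vpreb3) in running (orange, left) and sedentary mice (grey, right), 1 pooled value of 3 libraries each. Values are per gene, so those of Ighm and Igkc do not separate surface receptor from secreted antibody. The intervals are apart for Ighm and Igkc and overlap for the other 6 genes.

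Genes of other marrow cells were set beside these values. All 10 neutrophil genes had a log2 fold below 0, with a median of -0.15, and a summed level of 44764 FPKM in running and 52616 FPKM in sedentary mice. None of the 10 was called, and 1 had an unadjusted p under 0.05, against 0.941% and 5.65% of all tested genes. Of the monocyte and macrophage genes Ccr2 alone was called, and fell to 42.2 FPKM in running mice, against 57.3 FPKM in sedentary mice (q = 0.0133 in the authors' deposited table). The median was 0.03 for 7 erythroid genes, 0.03 for 10 T and NK cell genes, 0.07 for 8 monocyte and macrophage genes and -0.05 for 10 proliferation genes. The T cell genes Cd3d, Cd3e and Cd3g stood at 1.99 to 2.79 FPKM in running and 1.34 to 3.64 FPKM in sedentary mice, far below Cd79a. Not all of the T and NK cell list was that low. Nkg7, its most abundant gene, had 54.2 FPKM in running and 60.2 FPKM in sedentary mice, and Lck had 7.28 FPKM in both. The part of these other cells in the B lineage values was not tested.

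**Figure D4:**
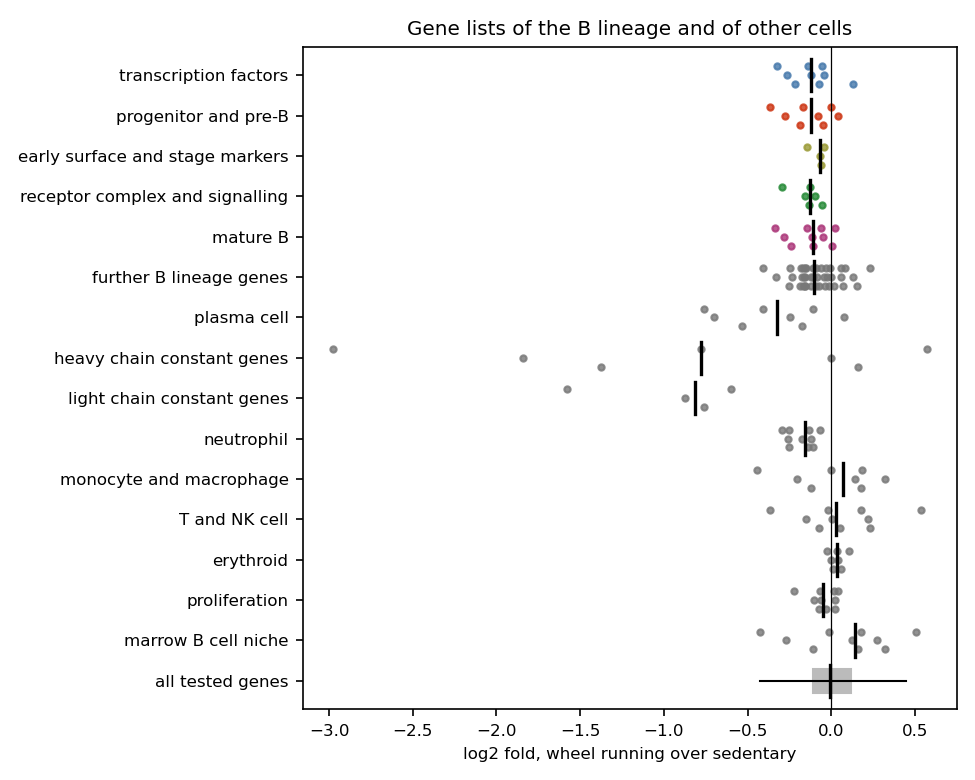
Log2 fold (running over sedentary) of each tested gene by list, with the list median as a black bar; for all tested genes the box spans the 25th to 75th percentile and the line the 5th to 95th. The 5 coloured B lineage lists lie close together just below 0, with medians from -0.13 to -0.07 as deposited and below 0 after both rescalings, while the constant region genes spread to -2.98.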

How the data were processed

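RNA of 6 libraries, 3 from running and 3 from sedentary mice, was measured. Per the submitters' processing notes, Trimmomatic 0.39, HISAT2 2.2.1, SAMtools 1.10 and Cufflinks 2.2.1 were used with GRCm38; their roles and settings are unknown here. The authors deposited 1 FPKM per group with interval bounds, and a log2 fold, a test statistic (a score), a p-value and a q-value per gene. Adjusting the deposited p by Benjamini and Hochberg across 15508 tested genes returned the deposited q. No column holds a single library, so the authors' q under 0.05 was the call. The size of 1 fragment in single-exon genes longer than 1500 bp gave effective depths of 13800000 to 17400000 fragments per library, at which 3 fragments of a 1 kb transcript equal 0.0627 FPKM in running and 0.0666 FPKM in sedentary mice, far below every member. This covers counting error only. Folds were computed here as log2(FPKM + 0.1) with Python 3.11.15 and pandas 2.3.3, and transcripts were aligned with Biopython 1.88. Gene coordinates are GENCODE M21, matched by Ensembl ID for 37 of 37 genes. In the further lists 1 symbol had no match, and 1 gene is not reported here. All 37 genes are named. From further lists, called genes and up to 4 of the most abundant were to be named. Ebf2, Ebf3, Siglech, Bst2, Tcf4, Il7, Tnfsf13b, Ighd, Irf4, S1pr1, the Cd3 genes and the genes whose exons overlap a member were chosen after seeing their values. Members and lists were chosen with earlier results of these data known. The list code was tested on simulated data.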

Additional observations from a re-analysis of the deposited data

How the results depend on the processing

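No paired analysis was possible because single libraries have no values in the deposited tables; leaving out mice and the replicate block were therefore not run. The number of B lineage genes called was 0 at a q under 0.05, 0.01 or 0.1 in the authors' deposited table. It was also 0 with separate intervals and with q recomputed over genes with FPKM of at least 1 or 5. At an unadjusted p under 0.05 it was 1 (Rag1, whose recomputed q was 0.148 and 0.133). Of all 15508 tested genes, 146, 108 and 190 passed at those q thresholds, and 876 at the unadjusted p. With q recomputed, 150 of 14488 and 124 of 10557 genes passed. Intervals were apart for 0.574% of all tested genes. With so small a share called over all genes, a count of 0 among 37 genes is a weak check at each q setting. Rescaling shifted all folds by 0.04 (same total) or 0.02 (same median ratio); it turned Igll1 to 0.0385 or 0.0177 and, with the same total, Cd24a to 0.00062. The count below 0 was then 31 or 32 in place of 33. The medians of the 5 role lists and of all 37 genes stayed below 0 under all 68 alternatives, between -0.18 and -0.02. Some of the 68 are weak checks. All 37 genes passed an FPKM of at least 1, so that filter and no filter left every median as it was. Changing the pseudocount cannot turn the sign of a gene's fold. Of the 68, leaving out genes that overlap another gene, whose interval reaches 0 or that many cells express was chosen after seeing the data. Vpreb2, Cr2 and Rag2 lay under 5 FPKM, and Vpreb2 rests on about 46 fragments in running and 54 in sedentary libraries.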
